A study of Mus musculus with 12 samples.

Results

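The genes described here are the keratins of mouse gingiva, that is every gene of the count table whose GENCODE M21 symbol is Krt followed by a number and at most 1 letter. The rule found 53 of 21965 genes in the table. It used names only and no measured value. Gingival RNA was read in 12 sequencing libraries, with 3 numbered libraries in each of 4 groups. Naive WT and ligated WT libraries came from C57BL/6 wildtype mice, and naive CybbKO and ligated CybbKO libraries from Cybb-/- mice, which carry a disrupted gene for a subunit of the phagocyte oxidase Nox2. Ligated mice had a silk thread tied at a maxillary molar for 8 days, naive mice had none, and all mice were younger than 12 weeks according to the labels. The authors deposited reads counted per gene, 27958819 to 42613423 per library. Levels are given below as CPM, a gene's counts relative to the library total as scaled by edgeR's TMM factors, and log2 fold changes compare group means of a joint fit.

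Keratins are the intermediate filament proteins of epithelial cells. Each filament is built from pairs of an acidic type I chain and a basic type II chain, so that cells make both types together. In stratified epithelia the pair Krt5 and Krt14 fills the dividing basal layer, and cells that leave it switch to Krt1 and Krt10 where the surface cornifies or to Krt4 and Krt13 where the lining stays soft. Gingiva has regions of both kinds, and Krt76 is a further type II keratin of its suprabasal cells. Krt6a, Krt6b, Krt16 and Krt17 are induced in skin by injury, although oral epithelium makes some of them without it. Krt8, Krt18, Krt7 and Krt19 are keratins of simple epithelia such as glands and ducts. In the classes used here they stand together with keratins of the junctional epithelium, where gingiva meets the tooth. A large set of further keratins builds hair, nail and the papillae of the tongue.

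Of the 53 keratin genes, 27 lie on chromosome 11 and 26 on chromosome 15 of GRCm38. Krt18 was the only type I keratin on chromosome 15. By textbook expression they were placed as 3 basal, 12 differentiated, 4 stress, 6 simple, 16 hair shaft and 9 hair sheath keratins, and 3 others. The class called simple was set up for simple and junctional epithelium together. After the filter on low counts 36 were tested and 17 were not, most of them hair keratins. Krt26 and Krt33b had 0 counts in all 12 libraries.

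RefSeq promoter windows of GRCm38.p6, from 250 bases before to 50 after a start site, were given for 36 of the 53 keratins. Stretches of 200 bases before the start are shown for 3 abundant differentiated keratins described below, Krt10 and Krt76, which were called lower in ligated tissue, and Krt13, which was not called. They were chosen after the values were seen. Each is on the minus strand, written 5′ to 3′, and capitals mark the letters TATAAA.
Krt10 (chr11:99389365-99389564): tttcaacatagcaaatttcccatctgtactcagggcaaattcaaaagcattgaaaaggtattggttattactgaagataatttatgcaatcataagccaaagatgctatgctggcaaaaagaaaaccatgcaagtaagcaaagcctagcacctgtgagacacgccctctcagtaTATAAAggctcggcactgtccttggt
Krt76 (chr15:101892921-101893120): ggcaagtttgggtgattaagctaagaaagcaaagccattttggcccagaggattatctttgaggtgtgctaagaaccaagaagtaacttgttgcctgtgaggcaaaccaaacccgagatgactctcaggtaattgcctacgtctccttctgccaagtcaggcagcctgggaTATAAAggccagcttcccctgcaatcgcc
Krt13 (chr11:100121567-100121766): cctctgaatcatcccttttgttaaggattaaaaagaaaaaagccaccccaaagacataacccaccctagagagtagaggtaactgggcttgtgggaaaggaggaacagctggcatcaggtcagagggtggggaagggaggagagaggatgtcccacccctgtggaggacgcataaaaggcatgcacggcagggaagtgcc
TATAAA or its reverse complement TTTATA stood in 19 of the 37 keratin windows, and in 13.6% of the 32851 windows of all genes. It lay 26 bases before the start of Krt10 and 29 bases before that of Krt76. The AP-1 motif TGACTCA, or TGAGTCA on the other strand, stood in 1 keratin window and in 5.2% of all windows. That window belongs to a second Krt13 start inside the gene and is not the stretch shown. These are matches of letters only.

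Several properties of the libraries bear on the values that follow. Cybb itself had 41.6 to 63.7 CPM in the libraries labelled CybbKO and 4.19 to 15.2 CPM in WT libraries, so the whole-gene count shows no loss of Cybb RNA. Such a count cannot tell whether the RNA comes from a disrupted gene, and this was not tested. Every genotype difference below is one of libraries labelled CybbKO. WT naive replicate 3 stood apart. The summed level of 8 salivary and mucous gland markers was 29734 CPM there, 59.4 CPM in WT naive replicate 1 and 1664 to 5193 CPM in the other 10 libraries. Nearly all of it was the mucin Muc5b, at 28942 CPM in replicate 3. CybbKO ligated replicate 2 also differed from the rest of its group, with a keratin share of 15.01% of counts against 10.8% and 9.78%, and a fibroblast marker sum of 3867 CPM against 10396 and 9404 CPM. Markers of neutrophils summed to 371 to 922 CPM in naive and 1341 to 11638 CPM in ligated libraries, and those of fibroblasts to 1390 to 2917 CPM in naive and 3867 to 10396 CPM in ligated libraries. Most of the neutrophil sum was S100a8 and S100a9, at 4551 and 6861 CPM in CybbKO ligated replicate 3. Ly6g had at most 1.77 CPM, and which cells made S100a8 and S100a9 was not tested. All 8 neutrophil markers tested, 5 of 5 macrophage, 3 of 4 T cell, 5 of 6 fibroblast and 4 of 4 endothelial markers were called higher in ligated tissue, against 14.7% of all genes. Of 6 pan-epithelial markers that are not keratins 0 were called, with a sum of 6028 to 7590 CPM in naive and 6007 to 6920 CPM in ligated libraries. Most of that sum was Perp alone, at 4456 to 5864 CPM. Of 6 skeletal muscle markers 1 was called, higher. The enamel and dentin markers Amelx, Dspp and Enam were at or near 0, and Dmp1, of bone and dentin, was called higher, with 0.122 to 0.975 CPM in naive and 0.856 to 6.80 CPM in ligated libraries. In such bulk tissue fewer cells of a type and less RNA per cell cannot be told apart, and the part of the added cells in the differences below was not tested beyond the epithelial scaling reported with them.

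Keratins made up 9.78% to 16.3% of all counts. Their share of the library was 13.1% ± 1.29 in naive WT, 14.3% ± 2.07 in naive CybbKO, 11.9% ± 1.68 in ligated WT and 11.8% ± 2.78 in ligated CybbKO tissue (SD, n = 3). The ranges of the groups overlapped. The highest share was in CybbKO naive replicate 1 and the lowest in CybbKO ligated replicate 3. Among the keratin counts, the 10 most abundant genes held 96.4% to 97.7% in every library, and these were Krt13, Krt4, Krt76, Krt6a, Krt6b, Krt16, Krt14, Krt24, Krt10 and Krt5. They include Krt13, Krt4, Krt76, Krt6a, Krt14 and Krt5, the keratins that define the epithelium of the labelled tissue.

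**Figure D1:**
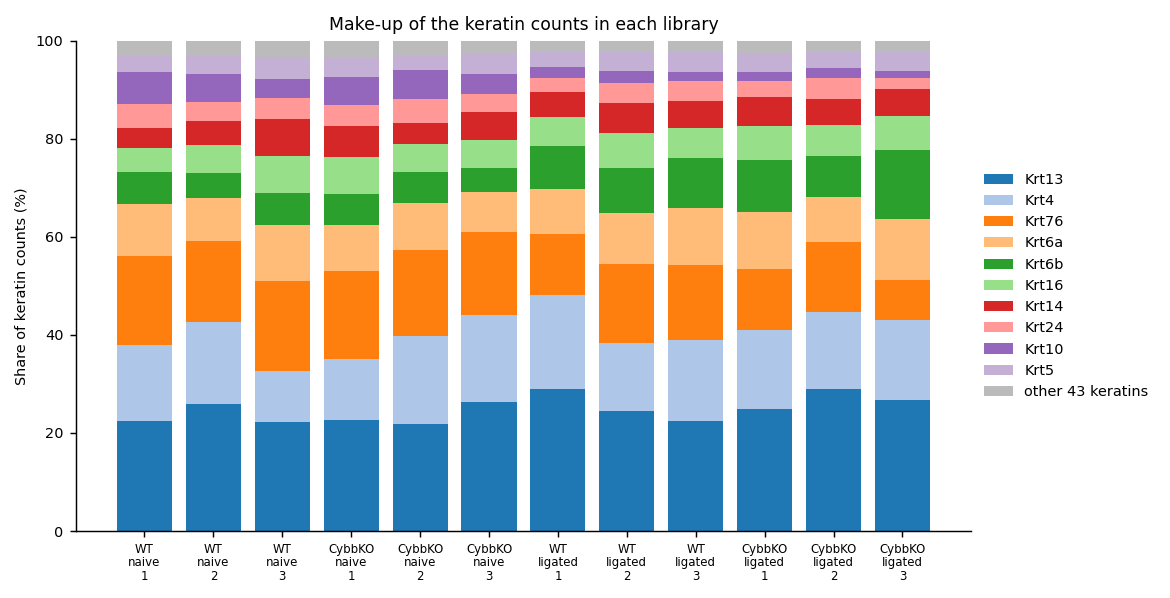
Share of each library's keratin counts (y axis, percent) taken by the 10 most abundant keratins and by the other 43 together, with 1 stacked bar for each of the 12 libraries. The purple segment of Krt10 is thinner in all 6 ligated libraries than in the 6 naive libraries, and the dark green segment of Krt6b is thicker.

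Differentiated keratins were the largest class, with 66.6% ± 5.35 in naive WT, 68.2% ± 3.21 in naive CybbKO, 63.5% ± 3.06 in ligated WT and 60.7% ± 5.25 in ligated CybbKO tissue of keratin counts (SD, n = 3). Stress keratins held 23.4% ± 3.12 in naive WT, 22.2% ± 2.53 in naive CybbKO, 26.9% ± 2.10 in ligated WT and 29.7% ± 5.0 in ligated CybbKO tissue. The basal class held 9.66% ± 2.40 in naive WT, 9.43% ± 1.64 in naive CybbKO, 9.39% ± 0.977 in ligated WT and 9.34% ± 0.281 in ligated CybbKO tissue. The shares of these classes overlapped between naive and ligated libraries. Simple keratins reached at most 0.234% of keratin counts in any library and hair shaft keratins at most 0.0390%. Type I and type II chains were close to balance on counts per kb of exon, with 47.3% to 54.4% type I among the libraries.

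Levels of different genes were compared per length, as CPM per kb of exon. Krt13, the type I chain of soft oral lining, led in naive tissue at 18532 ± 3566 CPM per kb (SD, n = 6), followed by Krt76 at 10841 ± 1615 and Krt4 at 9999 ± 2119 CPM per kb. The means of Krt76 and Krt4 differed by less than 1 SD. Krt16, Krt6a, Krt14, Krt6b, Krt10, Krt24 and Krt5 came next, from 5732 down to 2431 CPM per kb, and neighbours in this order differed by less than the larger of their SDs, except Krt24 and Krt5. In ligated tissue Krt6b stood at rank 4 in place of 7, with 5106 ± 608 CPM per kb (SD, n = 6), level with Krt6a at 5025 ± 426. Krt10 went from rank 8 to 10, from 3544 ± 844 to 1093 ± 322 CPM per kb.

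To ask how the ligature changed the keratins, ligated and naive tissue were compared over both genotypes and within each. Over both genotypes 10 of the 36 keratins tested were called at an adjusted p under 0.05, 9 lower and 1 higher in ligated tissue. Among all 15046 genes tested 24.4% were called, 9.66% lower and 14.7% higher. The keratins called lower were Krt10, Krt42, Krt1, Krt15, Krt84, Krt77, Krt80, Krt76 and Krt17, and the keratin called higher was Krt6b. The median log2 fold change was -0.51 over the 36 keratins and -0.031 over all genes, and 28 of the 36 were below 0. The keratin median was -0.27 over the 29 keratins with at least 10 counts in every library. In 5 keratins, namely Krt10, Krt42, Krt15, Krt84 and Krt77, no ligated library reached any naive library, and such separation downward was seen in 4.31% of all genes. The number of keratins called, 10 with all libraries, was 6 without CybbKO ligated replicate 1 and also 6 without WT naive replicate 2. Over all genes the calls went from 3668 to 2531 and 2754 in these fits. Krt10, Krt42, Krt1, Krt15, Krt84 and Krt77 were called with each of the 12 libraries left out.

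**Figure D2:**
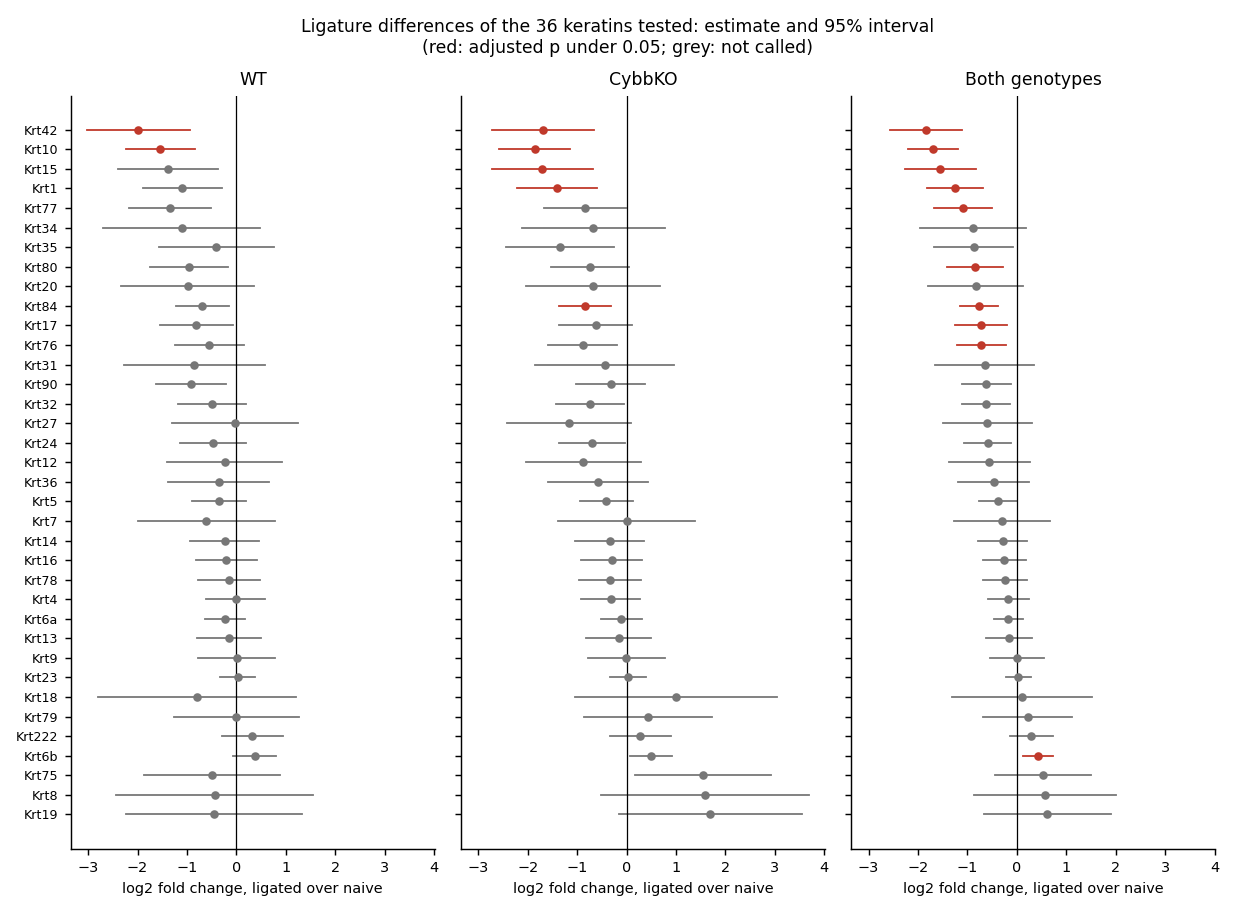
Log2 fold change of ligated over naive tissue (x axis) with its 95% interval for the 36 keratins tested (y axis), in WT, in CybbKO and over both genotypes. Red marks an adjusted p under 0.05, which holds for 2, 5 and 10 keratins, and Krt6b is the only red point to the right of 0.

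All 11 differentiated keratins tested had a log2 fold change below 0 over both genotypes, from -1.70 to -0.0018, and 5 of them were called lower, where 9.66% of all genes were. The value nearest 0 was that of Krt9, which turned to 0.17 when libraries were scaled to epithelial genes. Krt10, the type I chain of cornifying cells (ENSMUSG00000019761, chromosome 11, 99385254 to 99389364), had the smallest adjusted p of the family. It had 7736, 8643 and 5194 CPM in naive WT, 10131, 7237 and 6006 in naive CybbKO, 2790, 2760 and 1883 in ligated WT and 1940, 3124 and 1364 in ligated CybbKO libraries. Every ligated library lay below every naive library, and the level was 3.25-fold lower (log2 fold change -1.70, standard error 0.23, edgeR adjusted p = 0.000601). Krt10 was also called in each genotype alone, with a log2 fold change of -1.54 (adjusted p = 0.0296) in WT and -1.86 (adjusted p = 0.00469) in CybbKO by edgeR. In WT the call was lost without any of WT ligated replicates 1, 2 and 3 or WT naive replicates 1 and 2, with values from -1.62 to -1.37 in those fits.

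Krt1, the type II partner of Krt10 (ENSMUSG00000046834, chromosome 15, 101845426 to 101850794), fell with it. It had 913, 576 and 497 CPM in naive WT, 846, 902 and 375 in naive CybbKO, 399, 307 and 223 in ligated WT and 335, 298 and 171 in ligated CybbKO libraries. WT ligated replicate 1 lay above the lowest naive library, CybbKO naive replicate 3, and the other ligated libraries were below all naive ones (log2 fold change -1.25, standard error 0.26, edgeR adjusted p = 0.00571). Krt76 (ENSMUSG00000075402, chromosome 15, 101884351 to 101892920) had 21737, 25478 and 24954 CPM in naive WT, 31842, 21531 and 24844 in naive CybbKO, 16044, 19148 and 14248 in ligated WT and 12726, 21919 and 7643 in ligated CybbKO libraries. It fell (log2 fold change -0.72, standard error 0.23, edgeR adjusted p = 0.0385), and of the ligated libraries CybbKO ligated replicate 2 alone lay above any naive library. Its call was lost with each of 10 of the 12 libraries left out, at log2 fold changes of -0.78 to -0.57, and kept without CybbKO ligated replicate 2 or CybbKO naive replicate 2. It was also lost with library size alone, at -0.62.

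Krt13 and Krt4, the pair of the soft oral lining, were not called. Krt13 (ENSMUSG00000044041, chromosome 11, 100117327 to 100121566) had 26769, 39892 and 30218 CPM in naive WT, 40099, 26855 and 38650 in naive CybbKO, 37687, 28928 and 20750 in ligated WT and 25405, 43913 and 25365 in ligated CybbKO libraries. Krt4 (ENSMUSG00000059668, chromosome 15, 101918535 to 101924735) had 18234, 25407 and 14134 CPM in naive WT, 22023, 22030 and 26141 in naive CybbKO, 25231, 16440 and 15464 in ligated WT and 16603, 23810 and 15602 in ligated CybbKO libraries. Naive and ligated libraries overlapped throughout for both genes. The log2 fold change was -0.15 (adjusted p = 0.641) for Krt13, with a 95% interval of -0.62 to 0.31, and -0.17 (adjusted p = 0.559) for Krt4, with an interval of -0.59 to 0.25, both from edgeR. A p that misses the threshold does not show that the level stayed the same.

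**Figure D3:**
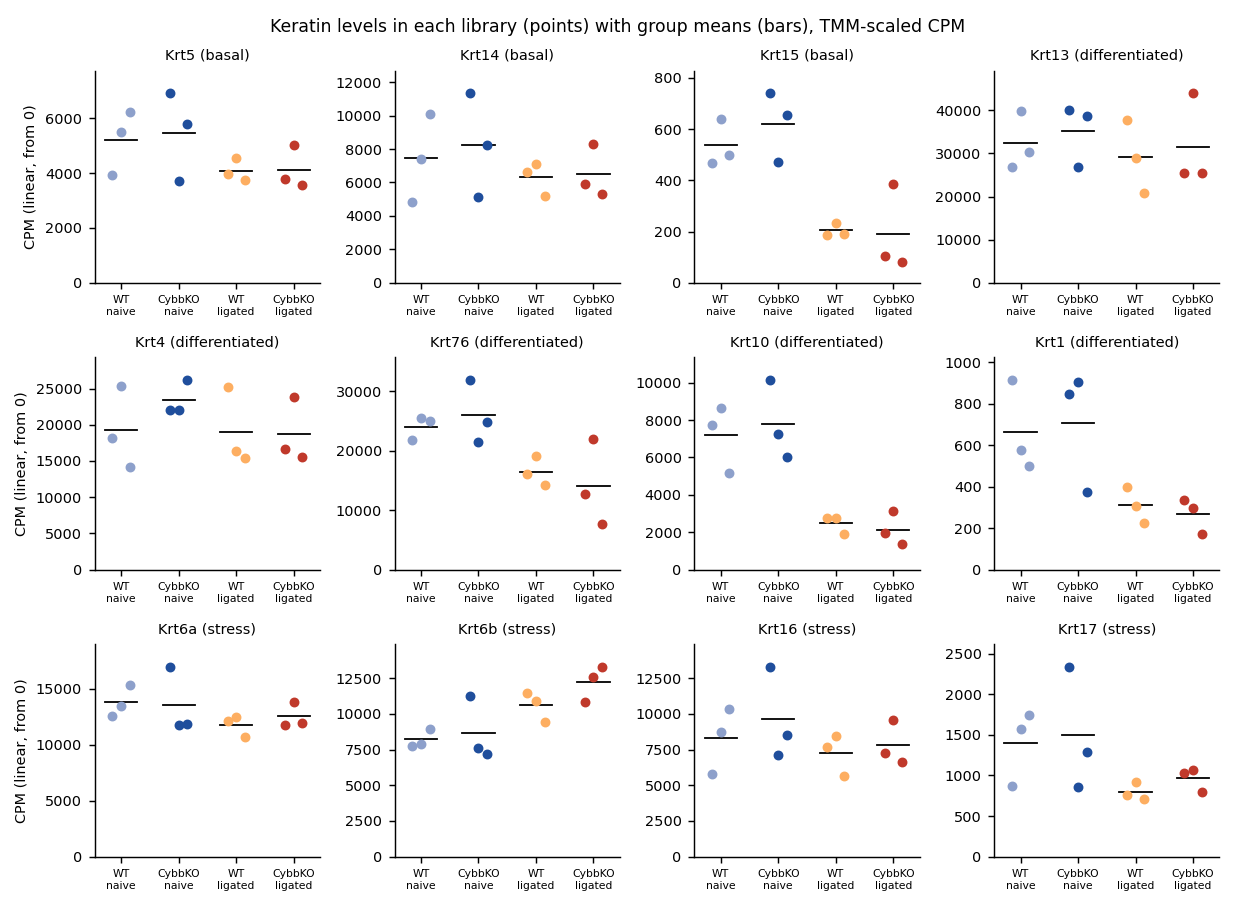
CPM of 12 keratins (y axes, linear from 0) in the 4 groups (x axis), with a point for each library and a bar at the mean of 3. Krt10 and Krt15 lie lower in all 6 ligated libraries than in all 6 naive ones, Krt6b lies higher in most, and Krt13, Krt4, Krt5, Krt14, Krt6a and Krt16 overlap.

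Krt24, a type I keratin of suprabasal cells, had 5679, 5992 and 5896 CPM in naive WT, 7314, 6134 and 5616 in naive CybbKO, 3891, 5060 and 3677 in ligated WT and 3348, 6242 and 2135 in ligated CybbKO libraries. It was lower in ligated tissue without passing the test (log2 fold change -0.59, standard error 0.22, edgeR adjusted p = 0.0705). CybbKO ligated replicate 2 was the only ligated library within the naive range, and without it Krt24 was called at a log2 fold change of -0.85. DESeq2 called Krt24 with all 12 libraries, at -0.60. Krt78 had 669.9, 941 and 606 CPM in naive WT, 1169, 611 and 799 in naive CybbKO, 928, 609 and 464 in ligated WT and 608, 799.9 and 639 in ligated CybbKO libraries. It overlapped throughout (log2 fold change -0.24, standard error 0.20, edgeR adjusted p = 0.422). Krt80, a type II keratin found near cell junctions, had 512, 773 and 681 CPM in naive WT, 957, 476 and 561 in naive CybbKO, 404, 399 and 214 in ligated WT and 347, 599 and 245 in ligated CybbKO libraries. It fell (log2 fold change -0.85, standard error 0.26, edgeR adjusted p = 0.032), and CybbKO ligated replicate 2 again reached into the naive range. The call was lost without WT ligated replicate 3, CybbKO ligated replicates 1 or 3, WT naive replicate 2 or CybbKO naive replicate 1, at -1.06 to -0.67 over all libraries left out.

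Krt77, a relative of Krt1 known from skin, was scarce, with 9 to 31 counts per library. It had 0.944, 0.664 and 0.620 CPM in naive WT, 0.433, 0.805 and 0.549 in naive CybbKO, 0.249, 0.393 and 0.234 in ligated WT and 0.366, 0.401 and 0.228 in ligated CybbKO libraries. All 6 ligated libraries were below all 6 naive ones (log2 fold change -1.10, standard error 0.27, edgeR adjusted p = 0.0128). Krt2, the type II keratin of the upper epidermis, had too few counts to be tested, with 0.244, 0.0949 and 0.109 CPM in naive WT, 0.144, 0.139 and 0.153 in naive CybbKO, 0.0747, 0.209 and 0.156 in ligated WT and 0.131, 0 and 0 in ligated CybbKO libraries. The remaining members of the class, Krt9 and Krt12, were measured at 5.18 and 0.583 CPM in naive tissue on average, and neither was called.

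Among the basal keratins Krt15 parted from Krt5 and Krt14. Krt15, a type I keratin of basal cells that is often used to mark quiescent ones (ENSMUSG00000054146, chromosome 11, 100131758 to 100135928), had 468, 641 and 499 CPM in naive WT, 739.5, 472 and 654 in naive CybbKO, 187, 235 and 192 in ligated WT and 103, 386 and 82.4 in ligated CybbKO libraries. Every ligated library was lower than every naive library, by 2.92-fold on average (log2 fold change -1.55, standard error 0.33, edgeR adjusted p = 0.00629). CybbKO ligated replicate 2 had the highest ligated level, and CybbKO ligated replicates 1 and 3 the lowest of all 12. Within genotypes the log2 fold change was -1.39 (adjusted p = 0.122) in WT, which was not called, and -1.71 (adjusted p = 0.0335) in CybbKO, by edgeR. The call in CybbKO was kept without CybbKO ligated replicate 2, at -2.75, and lost with any of the other 5 CybbKO libraries left out, at -1.87 to -1.35, and when the CybbKO groups were fitted alone, at -1.71.

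Krt5, the basal type II chain (ENSMUSG00000061527, chromosome 15, 101707070 to 101712898), had 3921, 5510 and 6219 CPM in naive WT, 6911, 3707 and 5781 in naive CybbKO, 3972, 4568 and 3740 in ligated WT and 3769, 5013 and 3572 in ligated CybbKO libraries. Krt14, its type I partner (ENSMUSG00000045545, chromosome 11, 100203162 to 100207548), had 4827, 7429 and 10068 CPM in naive WT, 11331, 5127 and 8266 in naive CybbKO, 6632, 7115 and 5221 in ligated WT and 5911, 8307 and 5309 in ligated CybbKO libraries. In both genes the 6 ligated libraries lay inside or just below the naive range, which was the wider one. Neither was called by edgeR, with a log2 fold change of -0.38 (adjusted p = 0.137) for Krt5 and -0.29 (adjusted p = 0.389) for Krt14, and the 95% intervals were -0.76 to 0.0032 and -0.78 to 0.21. Krt5 was called when CybbKO naive replicate 2 was left out, at a log2 fold change of -0.49.

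The stress keratins did not move together. Krt6b was called higher, Krt17 lower, and Krt6a and Krt16 were not called. Krt6b (ENSMUSG00000023041, chromosome 15, 101676023 to 101680287) had 7727, 7922 and 8967 CPM in naive WT, 11242, 7634 and 7172 in naive CybbKO, 11436, 10900 and 9455 in ligated WT and 10841, 12560 and 13278 in ligated CybbKO libraries. It rose 1.35-fold (log2 fold change 0.43, standard error 0.14, edgeR adjusted p = 0.0412), while CybbKO naive replicate 1 lay above 3 of the ligated libraries. This call was close to the threshold: it was lost when WT ligated replicates 1 or 2, CybbKO ligated replicates 1 or 3, WT naive replicates 1 or 2 or CybbKO naive replicates 2 or 3 were left out, and over all 12 libraries left out in turn it ranged from 0.37 to 0.55.

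Krt6a, the neighbouring type II gene (ENSMUSG00000058354, chromosome 15, 101689910 to 101694307), had 12609, 13492 and 15351 CPM in naive WT, 16944, 11772 and 11819 in naive CybbKO, 12117, 12456 and 10699 in ligated WT and 11779, 13866 and 11987 in ligated CybbKO libraries. Krt16, a type I partner of both, had 5811, 8751 and 10368 CPM in naive WT, 13276, 7098 and 8519 in naive CybbKO, 7648, 8432 and 5611 in ligated WT and 7223, 9565 and 6609 in ligated CybbKO libraries. Both overlapped between naive and ligated tissue, with log2 fold changes of -0.17 (adjusted p = 0.384) and -0.25 (adjusted p = 0.395) from edgeR and 95% intervals of -0.46 to 0.12 and -0.69 to 0.19. Krt17 had 873, 1579 and 1751 CPM in naive WT, 2336, 853 and 1295 in naive CybbKO, 762, 922 and 705 in ligated WT and 1033, 1068 and 798 in ligated CybbKO libraries. It was lower in ligated tissue (log2 fold change -0.72, standard error 0.24, edgeR adjusted p = 0.0457), although WT naive replicate 1 and CybbKO naive replicate 2 lay among the ligated libraries, and the call was lost when libraries were scaled to epithelial genes, at -0.54 with an edgeR adjusted p of 0.0794, with library size alone, with scaling on the other genes without keratins, with a minimum of 10 counts in every library, and with any of 9 libraries left out, at -0.86 to -0.48 over all 12.

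Krt6a and Krt6b are near-identical copies. In their GENCODE transcripts 33.0% of the 75-base windows of Krt6a also occur in Krt6b, and 36.9% of those of Krt6b in Krt6a, so that the authors' counting may have dropped or split part of their reads and each level is uncertain. The ratio Krt6b/Krt6a within a library, on CPM per kb, was 0.663, 0.635 and 0.632 in naive WT, 0.718, 0.702 and 0.656 in naive CybbKO, 1.02, 0.947 and 0.956 in ligated WT and 0.996, 0.980 and 1.20 in ligated CybbKO libraries. All 6 ligated libraries were above all 6 naive ones, by 0.60 on the log2 scale between the group means. This ratio was picked after its values were seen and is given as a description. Krt14 and Krt16 shared 5.71% of the windows of Krt14, and Krt10, Krt13, Krt1 and Krt15 shared 0% of theirs with any keratin. With 36-base windows Krt6a shared 44.3% of its own with Krt6b, Krt6b 48.6% with Krt6a and Krt14 15.8% with Krt16, while Krt15 shared 2.598% with any keratin.

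Since type I and type II chains pair, ratios of known partners were taken in each library, on CPM per kb. Krt5/Krt14 ran from 0.488 to 0.650 in naive and from 0.479 to 0.573 in ligated libraries. Krt4/Krt13 ran from 0.399 to 0.700 and from 0.463 to 0.636. These and the ratios Krt1/Krt10, Krt6a/Krt16 and Krt8/Krt18 overlapped between naive and ligated tissue. Krt1/Krt10 was between 0.0299 and 0.0826 in all libraries, so Krt10 was far above its textbook partner per length. Some further ratios separated. Krt13/Krt10 was 4.02, 5.36 and 6.75 in naive WT, 4.59, 4.31 and 7.47 in naive CybbKO, 15.7, 12.2 and 12.8 in ligated WT and 15.2, 16.3 and 21.6 in ligated CybbKO libraries. Krt15/Krt14 was 0.0965, 0.0858 and 0.0493 in naive WT, 0.0649, 0.0915 and 0.0787 in naive CybbKO, 0.0280, 0.0329 and 0.0366 in ligated WT and 0.0174, 0.0462 and 0.0154 in ligated CybbKO libraries. In both, as in Krt76/Krt10, no ligated library overlapped a naive one, while Krt6b/Krt16 overlapped, with 0.589 to 0.931 in naive and 0.905 to 1.41 in ligated libraries. These ratios too were chosen after their values were seen.

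**Figure D4:**
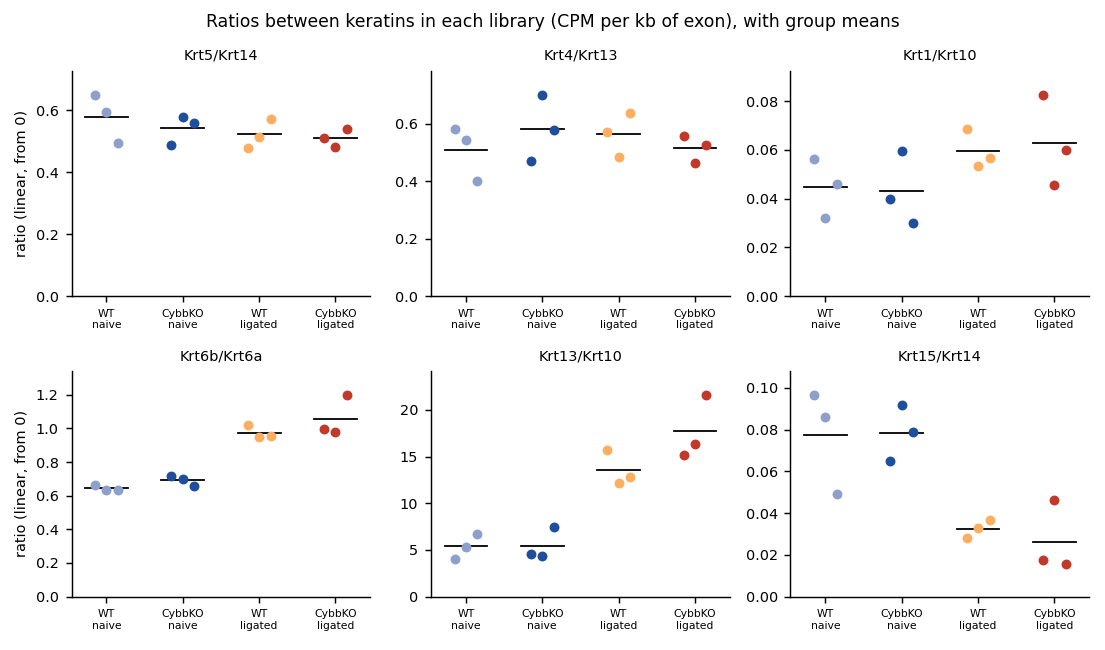
Ratios between keratins on CPM per kb of exon (y axes, linear from 0) in the 4 groups (x axis), with a point for each library and a bar at the mean of 3. The partner ratios Krt5/Krt14, Krt4/Krt13 and Krt1/Krt10 overlap between naive and ligated libraries, while Krt6b/Krt6a, Krt13/Krt10 and Krt15/Krt14 do not.

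To set the keratins against other epithelial genes, the libraries were also scaled to 12 epithelial genes that are not keratins, among them Cdh1, Trp63, Dsp and Perp. With TMM the median log2 fold change of these 12 was itself below 0, at -0.18, and they include genes called lower, such as Lad1 at -0.49 (adjusted p = 0.0478) by edgeR. This scaling shifted the median of all genes by 0.163 on the log2 scale over both genotypes. Relative to these genes 9 of the 36 keratins were called, beside 3343 of all 15046 genes tested. All 9 keratins were also called by the TMM scaling. Krt10 fell by 1.55, Krt15 by 1.42 and Krt76 by 0.57 on the log2 scale, and Krt6b rose by 0.60 (adjusted p = 0.0031, edgeR). Krt13, Krt4 and Krt6a had log2 fold changes of -0.0031, -0.022 and -0.0029, with 95% intervals of -0.36 to 0.36, -0.39 to 0.34 and -0.23 to 0.22. Over all genes called, the share that was higher in ligated tissue was 60.4% with TMM, 78.4% with library size alone and 85.4% with the epithelial scaling. In the same order it was 72.3%, 87.5% and 90.04% in WT and 76.6%, 86.3% and 90.6% in CybbKO.

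Keratins of the simple class were rare apart from Krt23. Krt18 had 0.914, 10.8 and 73.3 CPM in naive WT, 5.48, 7.24 and 7.60 in naive CybbKO, 19.5, 19.7 and 9.47 in ligated WT and 14.02, 15.6 and 11.04 in ligated CybbKO libraries. Krt8, its type II partner, had 0.518, 2.91 and 21.3 CPM in naive WT, 1.65, 1.33 and 1.80 in naive CybbKO, 6.20, 9.68 and 2.23 in ligated WT and 3.71, 7.46 and 3.17 in ligated CybbKO libraries. Krt19 had 0.883, 1.33 and 7.73 CPM in naive WT, 1.01, 1.19 and 0.946 in naive CybbKO, 1.92, 4.45 and 0.830 in ligated WT and 1.83, 6.69 and 1.73 in ligated CybbKO libraries. In all 3 genes WT naive replicate 3 was the highest of the 12 libraries, and it also had the highest gland marker sum, 29734 CPM. WT naive replicate 1, with the lowest gland marker sum, had the lowest Krt18 and Krt8. Which epithelium these transcripts came from was not tested.

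With all libraries 0 of 6 simple keratins were called over both genotypes by edgeR, and 0 had an unadjusted p under 0.05, against 37.2% of all genes. Without WT naive replicate 3, Krt8 was called higher in ligated tissue (log2 fold change 1.70, standard error 0.48, edgeR adjusted p = 0.023), with 0.518 to 2.91 CPM in the 5 naive libraries and 2.23 to 9.68 in the 6 ligated ones. Krt18 went from 0.10 (adjusted p = 0.934) to 1.23 (adjusted p = 0.0697) and Krt19 from 0.62 (adjusted p = 0.478) to 1.40 (adjusted p = 0.0551) on leaving it out, both without a call. In WT alone the log2 fold change of Krt8 turned from -0.44 (adjusted p = 0.831) to 1.82 (adjusted p = 0.166) and that of Krt18 from -0.80 (adjusted p = 0.672) to 1.47 (adjusted p = 0.243). The direction of Krt8 and Krt18 in WT thus rests on that library. In CybbKO, which does not include it, all 3 ligated libraries were above all 3 naive ones in Krt8, Krt18 and Krt19, at log2 fold changes of 1.58 (adjusted p = 0.316), 1.00 (adjusted p = 0.526) and 1.70 (adjusted p = 0.221) by edgeR. Separation in either direction was seen in 31.4% of all genes in CybbKO. None of the 3 was called there, but Krt8 and Krt18 were called higher when the CybbKO groups were fitted alone.

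**Figure D5:**
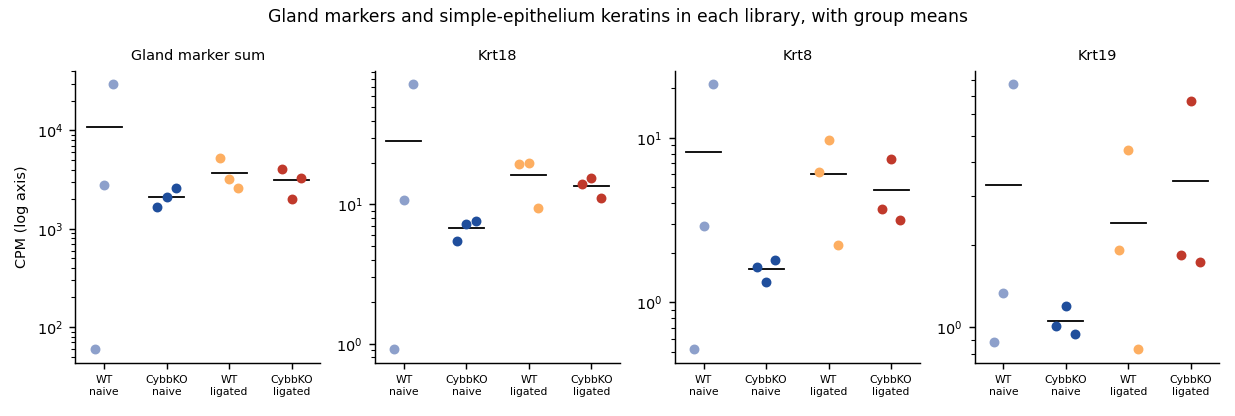
Summed CPM of 8 gland markers and CPM of Krt18, Krt8 and Krt19 (y axes, log scale) in the 4 groups (x axis), with a point for each library and a bar at the mean of 3. WT naive replicate 3 is the top point in every panel, at 29734 CPM for the markers and 73.3 CPM for Krt18.

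Krt7, another keratin of ducts and glands, had 2.83, 5.06 and 15.8 CPM in naive WT, 7.65, 4.33 and 5.95 in naive CybbKO, 4.70, 7.30 and 3.48 in ligated WT and 3.32, 11.6 and 3.01 in ligated CybbKO libraries. Krt23 was the most abundant of the class, at 201, 258 and 185 CPM in naive WT, 201, 213 and 234 in naive CybbKO, 254, 203 and 199.6 in ligated WT and 191, 265 and 203 in ligated CybbKO libraries. Its log2 fold change of 0.026 (adjusted p = 0.9) by edgeR, with a 95% interval of -0.23 to 0.28, turned below 0 when WT ligated replicate 1, CybbKO ligated replicate 2 or WT naive replicate 3 was left out. Krt20, an intestinal keratin, had 0.426, 0.474 and 0.328 CPM in naive WT, 0.231, 0.111 and 0.641 in naive CybbKO, 0.199, 0.340 and 0.0778 in ligated WT and 0.235, 0.160 and 0.205 in ligated CybbKO libraries. Neither Krt7 nor Krt20 was called. The junctional epithelium, which attaches gingiva to the tooth, is marked by Odam, and Odam had 553 to 866 CPM in naive and 243 to 721 in ligated libraries (log2 fold change -0.67, standard error 0.26, edgeR adjusted p = 0.0812).

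Hair-type keratins were present at low levels. On CPM not divided by length the most abundant were Krt32, Krt84 and Krt79. Per kb Krt36 was above Krt79 in naive tissue. Krt84, a type II hard keratin also made in papillae of the tongue (ENSMUSG00000044294, chromosome 15, 101525026 to 101532820), had 13.0, 21 and 13.1 CPM in naive WT, 25.6, 14.4 and 16.9 in naive CybbKO, 10.5, 10.6 and 8.12 in ligated WT and 11.1, 10.8 and 9.77 in ligated CybbKO libraries. All ligated libraries were below all naive ones (log2 fold change -0.77, standard error 0.17, edgeR adjusted p = 0.00838). Krt32, a hair cuticle keratin, had 22.8, 34.3 and 26.03 CPM in naive WT, 30.5, 24.7 and 30.05 in naive CybbKO, 24.9, 15.5 and 18.8 in ligated WT and 15.01, 26.5 and 9.49 in ligated CybbKO libraries. It was not called (log2 fold change -0.62, standard error 0.22, edgeR adjusted p = 0.0633) but was called without CybbKO ligated replicate 2, at -0.85, and by DESeq2 with all libraries, at -0.63. Krt79, of the hair follicle opening, had 1.74, 3.92 and 10.5 CPM in naive WT, 1.73, 3.05 and 3.203 in naive CybbKO, 8.31, 4.29 and 3.50 in ligated WT and 3.63, 5.30 and 1.87 in ligated CybbKO libraries, again highest in WT naive replicate 3. All 6 hair shaft keratins tested had a log2 fold change below 0, and 1 was called lower, Krt84. Of 5 hair follicle markers tested that are not keratins 3 were called lower, Foxn1, Msx2 and S100a3, against 9.66% of all genes, while Hoxc13, which drives hard keratin genes, had at most 0.231 CPM.

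Krt42, a type I keratin known from nail that belongs to none of the classes (ENSMUSG00000053654, chromosome 11, 100262882 to 100269871), had 8.10, 20.3 and 37.3 CPM in naive WT, 17.2, 9.16 and 13.1 in naive CybbKO, 4.41, 5.23 and 6.98 in ligated WT and 3.60, 5.83 and 2.78 in ligated CybbKO libraries. Every ligated library was below every naive one (log2 fold change -1.84, standard error 0.34, edgeR adjusted p = 0.00283). WT naive replicate 3 was again the highest, and without it the log2 fold change was -1.53 (adjusted p = 0.00331) over both genotypes and -1.36 (adjusted p = 0.0827) in WT, where the call was lost, by edgeR. The WT call was also lost when the WT groups were fitted alone and without WT ligated replicate 1, 2 or 3 or WT naive replicate 2. Krt90 had 29.7 to 37.1 CPM in naive and 8.84 to 35.8 CPM in ligated libraries and was called by DESeq2 but not by edgeR (log2 fold change -0.62, standard error 0.23, edgeR adjusted p = 0.0682), while Krt222 was called by neither (log2 fold change 0.30, standard error 0.20, edgeR adjusted p = 0.311).

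Within WT, 2 of 36 keratins were called, Krt10 and Krt42, both lower, where 3.2% of all genes were called and 0.884% were called lower. The count was 0 without WT ligated replicate 1, 2 or 3 or WT naive replicate 2, and 1 without WT naive replicate 1 or 3. Calls over all genes, 481 in WT, moved as well, to 247, 110 and 120 without WT ligated replicates 1, 2 and 3, and to 113, 27 and 737 without WT naive replicates 1, 2 and 3. Within CybbKO, 5 were called, Krt10, Krt1, Krt15, Krt42 and Krt84, all lower, while with epithelial scaling Krt84 was not called and Krt6b was called higher, at 0.67 (adjusted p = 0.0179) by edgeR. With TMM 13% of all genes were called and 3.04% were called lower. The calls of Krt84, Krt1 and Krt15 were lost when the CybbKO groups were fitted alone. Krt1 was also lost without CybbKO ligated replicates 1 or 3 or CybbKO naive replicates 1 or 2. Krt42 was lost without CybbKO ligated replicates 1 or 3 or CybbKO naive replicates 1 or 3. Of the fits with a CybbKO library left out, Krt84 was kept only without CybbKO naive replicate 2. The count of keratins called was 1 without CybbKO ligated replicate 1 or 3 and 9 without CybbKO ligated replicate 2. It was 2 without CybbKO naive replicate 1 or 3 and 3 without CybbKO naive replicate 2. Over all genes the 1954 calls in CybbKO became 837, 2949 and 854 without CybbKO ligated replicates 1, 2 and 3, and 1178, 1113 and 1148 without CybbKO naive replicates 1, 2 and 3. Keratins with no overlap between the 3 ligated and 3 naive libraries numbered 12 in WT and 11 in CybbKO, against 24.9% and 31.4% of all genes. An exact two-sided permutation test of 3 against 3 libraries cannot give a p below 0.1, and with 6 against 6 the smallest is 0.00216, which Krt10, Krt42, Krt15, Krt84 and Krt77 reached.

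The different numbers of calls in WT and CybbKO do not show a difference between them. The interaction of genotype and ligature was called by edgeR for 0 of 36 keratins and 0 of all 15046 genes (0%), and by DESeq2 for 0 of 51 keratins. The unadjusted p was under 0.05 for 1 keratin, against 2.27% of all genes. For Krt10 the interaction was -0.33 on the log2 scale (95% interval -1.30 to 0.65), for Krt15 -0.32 (-1.72 to 1.09) and for Krt6b 0.12 (-0.48 to 0.73). The keratin under 0.05 was Krt75, of the companion layer of hair follicles, at 2.04 (unadjusted p = 0.0409, edgeR adjusted p = 1), and at 1.01 (unadjusted p = 0.201) without WT naive replicate 3.

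Compared directly, libraries labelled CybbKO and WT differed in 0 of 36 keratins in ligated tissue, where 0.00665% of all genes were called, by edgeR, and in 0 of 43 by DESeq2. Keratins with an unadjusted p under 0.05 numbered 1 of 36, Krt75, against 3.34% of all genes. Krt75 had 0.457, 1.33 and 3.72 CPM in naive WT, 1.04, 1.53 and 1.22 in naive CybbKO, 0.921, 1.02 and 1.95 in ligated WT and 5.27, 1.71 and 4.08 in ligated CybbKO libraries. CybbKO ligated replicates 1 and 3 were the highest, while CybbKO ligated replicate 2 lay below WT ligated replicate 3 (log2 fold change 1.51, 95% interval 0.15 to 2.87, edgeR adjusted p = 1). The median keratin differed by -0.0022 on the log2 scale, and by -0.31 without CybbKO ligated replicate 2 and 0.12 without CybbKO ligated replicate 3. The intervals of Krt10, Krt13 and Krt6b were -0.90 to 0.48, -0.54 to 0.77 and -0.22 to 0.63. In 0 keratins did the ligated libraries of the genotypes separate, against 7.84% of all genes.

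In naive tissue 0 of 36 keratins were called by edgeR and 0 of 51 by DESeq2, with 0.00665% of all genes called by edgeR. Krt8 alone had an unadjusted p under 0.05, against 2.03% of all genes, at a log2 fold change of -2.36 (unadjusted p = 0.0329, edgeR adjusted p = 1). Without WT naive replicate 3 it was -0.10 (adjusted p = 0.991), so that this difference rests on that library. Groups separated in 0 keratins, against 5.11% of all genes. The 95% interval was -0.57 to 0.81 for Krt10 and -0.78 to 1.21 for Krt15.

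Genes that tie keratin filaments to junctions or bundle them, and factors that regulate keratin genes, were counted as lists. Of 17 linker genes 3 were called lower over both genotypes and 0 higher. They were Eppk1, or epiplakin, which binds keratin networks (log2 fold change -1.39, standard error 0.13, edgeR adjusted p = 0.000171), Dst, which joins basal keratins to hemidesmosomes (log2 fold change -1.01, standard error 0.15, edgeR adjusted p = 0.00108), and Flg, or filaggrin, which bundles keratins in cornified cells (log2 fold change -0.51, standard error 0.12, edgeR adjusted p = 0.00816). Eppk1 had 110.3, 91.6 and 122 CPM in naive WT, 66.8, 98.8 and 98.7 in naive CybbKO, 41.8, 36.2 and 48.2 in ligated WT and 37.5, 33.7 and 27.8 in ligated CybbKO libraries, without overlap. The desmosome genes Dsp, Jup, Pkp1, Pkp2 and Pkp3 were not called. Pkp2 was the only linker with a log2 fold change above 0, at 0.65. The median of the list was -0.34, against -0.031 over all genes. Of 22 regulators tested 4 were called lower, Tfap2c at -0.53 (adjusted p = 0.00131), Nfe2l2 at -0.54 (adjusted p = 0.0101), Foxn1 at -0.51 (adjusted p = 0.0301) and Klf4 at -0.40 (adjusted p = 0.0281), log2 fold changes from edgeR, and 0 were higher. Klf4 acts in epithelial differentiation, and Nfe2l2 is the stress factor Nrf2. The 3 linkers were 17.6% and the 4 regulators 18.2% of those tested, where 9.66% of all genes were called lower and 24.4% were called in either direction. Between libraries labelled CybbKO and WT 0 genes of either list were called in naive or in ligated tissue.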

How the data were processed

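RNA was extracted from gingival tissue around a maxillary molar and made into stranded, poly(A)-selected libraries. The authors deposited raw read counts per gene, 1 column for each of the 12 libraries. Their methods name alignment to GRCm38 with STAR and strand-aware counting with featureCounts. The submitters' processing notes name HTSeq 0.10.0, and the deposited counts are also named for HTSeq, so the sources disagree and the counter is not settled. Both a paired-end and a single-end read layout are named. Reads shared by near-identical keratins could be dropped or split by either counter. Ensembl identifiers were matched to GENCODE M21 symbols for 21939 of 21965 rows, and 0 columns belonged to no sample.

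Genes passing edgeR's filterByExpr (15046) were fitted jointly over the 12 libraries with 1 mean per group, TMM scaling and the quasi-likelihood F test (edgeR 4.0.16, R 4.3.3), with Benjamini-Hochberg adjustment over all genes tested and calls at an adjusted p under 0.05. Intervals are 95% t intervals of the fitted log2 fold change. Exact two-sided permutation tests used log2(CPM + 0.5). CPM per kb used merged exon lengths. The 3 libraries of a group carry separate numbers in the labels, and p-values measure the spread between them. Total counts of 27958819 to 42613423 set the depth, and a keratin with few counts is limited by counting error. No libraries held the same counts. Fits were tested on simulated data. Alternatives were DESeq2 1.42.0, other scalings and filters, a robust fit, a replicate block, fits of the compared groups alone and leaving out each library.

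The keratin classes, the other lists and the members were chosen with earlier results of these data known. Named with values in every library were the main basal, differentiated, stress and simple keratins, the 3 most abundant hair-type keratins, and any keratin called in a comparison or with an unadjusted p under 0.05 between genotypes. Krt80 and Krt77 entered as called keratins.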

Additional observations from a re-analysis of the deposited data

How the results depend on the processing

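In WT, 4 keratins were called with DESeq2, and 0 to 1 with a library left out. In CybbKO, the count with the replicate number as a block was 3, and 1 to 9 with a library left out. Over both genotypes it was 6 to 13 with a library left out. The genotype comparisons and the interaction gave 0 to 0. The basal share in ligated CybbKO tissue was 9.89% of keratin counts per kb, against 9.34%. The log2 fold change of Krt23 over both genotypes, 0.026, ran from -0.054 to 0.10 with a library left out, and was negative when the library removed was CybbKO ligated replicate 2 (-0.054), WT naive replicate 3 (-0.023) or WT ligated replicate 1 (-0.011). The cause was not tested. When the CybbKO groups were fitted alone, 4 keratins were called, Krt10 and Krt42 lower and Krt8 and Krt18 higher. That fit called 1519 of all 14747 genes tested, 1268 higher and 251 lower. Over all genes, the count in WT was 481, but 1374 with DESeq2, 271 with the replicate block and 27 to 737 with a library left out. In CybbKO it was 1954, and 837 to 2949 with a library left out. Over both genotypes it was 3668, and 2531 to 4694 with a library left out.

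Replicate numbers did not pair the libraries. The correlation of deviations between same-numbered libraries ran from -0.23 to 0.28 and passed 0.1 in 2 of 18 pairs. With the replicate block, 10 keratins were called over both genotypes, 8 of them shared with the fit without it. Over all 15046 genes tested the block called 2997, against 3668 without it. Krt6b and Krt17 were lost, and Krt24 and Krt90 were gained. The block also lost the calls of Krt42 in WT and of Krt42 and Krt84 in CybbKO, and gained Krt1 in WT.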
